A study of Mus musculus with 39 samples.

Results

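The 6 miRNAs described here, mmu-miR-375, mmu-miR-218, mmu-miR-122, mmu-miR-192, mmu-miR-194 and mmu-miR-215, were taken from the 650 miRNAs of an Agilent mouse miRNA array by their names, as miRNAs known from the gut, the liver or the pancreas together with miR-218. Their levels were followed while mouse embryonic stem cells (ESCs) were driven toward definitive endoderm, the germ layer that gives rise to the lining of the gut, the liver and the pancreas. Of the 6, only miR-375 and miR-218 were detected: miR-375 on 19 of 39 arrays and miR-218 on 27 of 39, while miR-122, miR-192, miR-194 and miR-215 were detected on 0 of 39. On the whole array 237 of the 650 miRNAs (36.5%) were undetected on all 39 arrays, and 143 (22%) were detected on all of them.

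TCL-1 mouse ESCs of the 129/SvJae strain were grown on mouse embryonic fibroblast feeders. Feeder cells were removed by a short passage on gelatin, and the ESCs were plated on collagen and cultured in serum-free RPMI medium with B27. The study's methods name sodium butyrate in the differentiation medium of all groups, the control included. Its protocol for miRNA over-expression spells this supplement as sodium byruate, so the sources leave the compound uncertain. Cells received no growth factor (control), 50 ng/ml Wnt3a (a ligand of the canonical Wnt pathway), 100 ng/ml Activin A (a TGF-beta family ligand that acts through the Nodal receptors), or both factors at the same doses, for 1, 3 or 5 days. With the undifferentiated ESCs this gave 13 groups of 3 arrays, 1 array per sample. All groups came from 1 ESC line, and the sources do not say whether the 3 samples of a group were separate cultures, so the p-values below measure only the spread between these samples, which may be technical.

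A miRNA is a short RNA that guides the Argonaute protein to partly complementary sites in messenger RNAs, mostly through its seed (bases 2 to 8). miR-375 is abundant in pancreatic islets, where it restrains insulin secretion and is needed for normal beta cell mass, and it is also found in gut epithelium and pituitary. miR-218 is made from introns of the Slit genes, which encode guidance ligands of the Robo receptors, and is known from motor neurons and mesenchymal cells. miR-122 is the main miRNA of hepatocytes. miR-192, miR-194 and miR-215 mark the intestinal epithelium, the liver and the kidney, and are made from a pair of gene clusters.

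The sequences are shown to tell apart the miRNAs that the array measured from each other and to show which of them share a seed. The RefSeq annotation of mouse build GRCm38.p6 gave the following mature sequences, written 5′ to 3′ with the seed in capitals.
miR-218-5p: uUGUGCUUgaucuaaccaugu
miR-192-5p: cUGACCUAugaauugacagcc
miR-215-5p: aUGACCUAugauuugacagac
miR-194-5p: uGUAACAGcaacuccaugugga
For miR-375 the hairpin of 64 bases is given, in lower case throughout.
Mir375 hairpin: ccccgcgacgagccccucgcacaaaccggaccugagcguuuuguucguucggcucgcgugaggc
miR-192 and miR-215 shared 1 seed and 18 of 21 positions, and among the 1679 mature mouse entries of the table only these 2 carried that seed. The seed of miR-194 was found in miR-194-5p alone, and that of miR-218 was shared with miR-7002-3p.

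The Mir375 hairpin lies at chr1:74900658-74900721 on the minus strand, in no annotated gene body, 1816 bases from Cryba2 (a lens crystallin gene) and 1350 bases from Cfap65 (a cilia and flagella gene). miR-218 comes from 2 loci: Mir218-1 at chr5:48223942-48224051, inside Slit2, and Mir218-2 at chr11:35616816-35616925, inside Slit3, both on the plus strand. miR-194 also comes from 2 loci, each beside one of its partners. Mir194-1 (chr1:185313319-185313385) and Mir215 (chr1:185313581-185313692) are 195 bases apart within the span of Iars2, and Mir194-2 (chr19:6264643-6264728) and Mir192 (chr19:6264844-6264932) are 115 bases apart between Atg2a and Ehd1.

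Signals are the total intensity of the probes of a miRNA after background subtraction, in arbitrary units, and the scanner software set an undetected miRNA to 0.1. The arrays detected 183 to 375 of the 650 miRNAs, 0 spots were saturated, and the local background had a median of 35 to 42 units. For tests the signals were quantile normalized, set to at least 2 (the floor) and converted to log2, so that an undetected miRNA has a log2 level of 1. The lowest normalized signal detected was 12.3 to 34.4 on the arrays of ESCs and day 1, against 2 to 11.3 at days 3 and 5, so a low level was harder to detect early. In the value table of the series, 18 of the 39 columns held the values of another array: the 9 columns named for Activin A held those of the 9 Activin A plus Wnt3a arrays, and the reverse. The groups below follow each array's own file. With the columns of the value table as named, Activin A plus Wnt3a minus Activin A changed sign for both detected miRNAs, to -1.35 for miR-375 at day 3 (limma, adjusted p = 0.0664) and -0.73 at day 5 (adjusted p = 0.22), and to -0.08 and -0.04 for miR-218. The difference of miR-375 from control then became 2.89 at day 3 and 6.11 at day 5 for Activin A, and 1.54 and 5.38 for both factors. The files alone do not settle which set of names is right.

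miR-375 was absent from the detected miRNAs of the early samples and rose highest under Activin A. Its signal was 0.1 on all 3 arrays of ESCs and on all 12 arrays of day 1. At day 3 the control gave 0.1, 0.1 and 8.80 and Wnt3a gave 25.7, 16.1 and 28.9. Activin A gave 10.5, 8.64 and 11.0 at day 3, and Activin A plus Wnt3a gave 30.0, 22.8 and 31.9. The Wnt3a arrays and the Activin A plus Wnt3a arrays therefore overlapped at day 3, both lay above the Activin A arrays, and the Activin A arrays overlapped neither of them but had 1 value below the highest control value.

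By day 5 the order of the arms had changed. The control was at 0.1 on all 3 arrays and Wnt3a gave 15.2, 18.0 and 16.2. Activin A gave 82.3, 72.5 and 74.1, and Activin A plus Wnt3a gave 113, 103 and 102. No values of these 4 groups overlapped at day 5. On 6 groups, those of the 3 treatments at days 3 and 5, miR-375 was detected on 3 of 3 arrays.

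**Figure D1:**
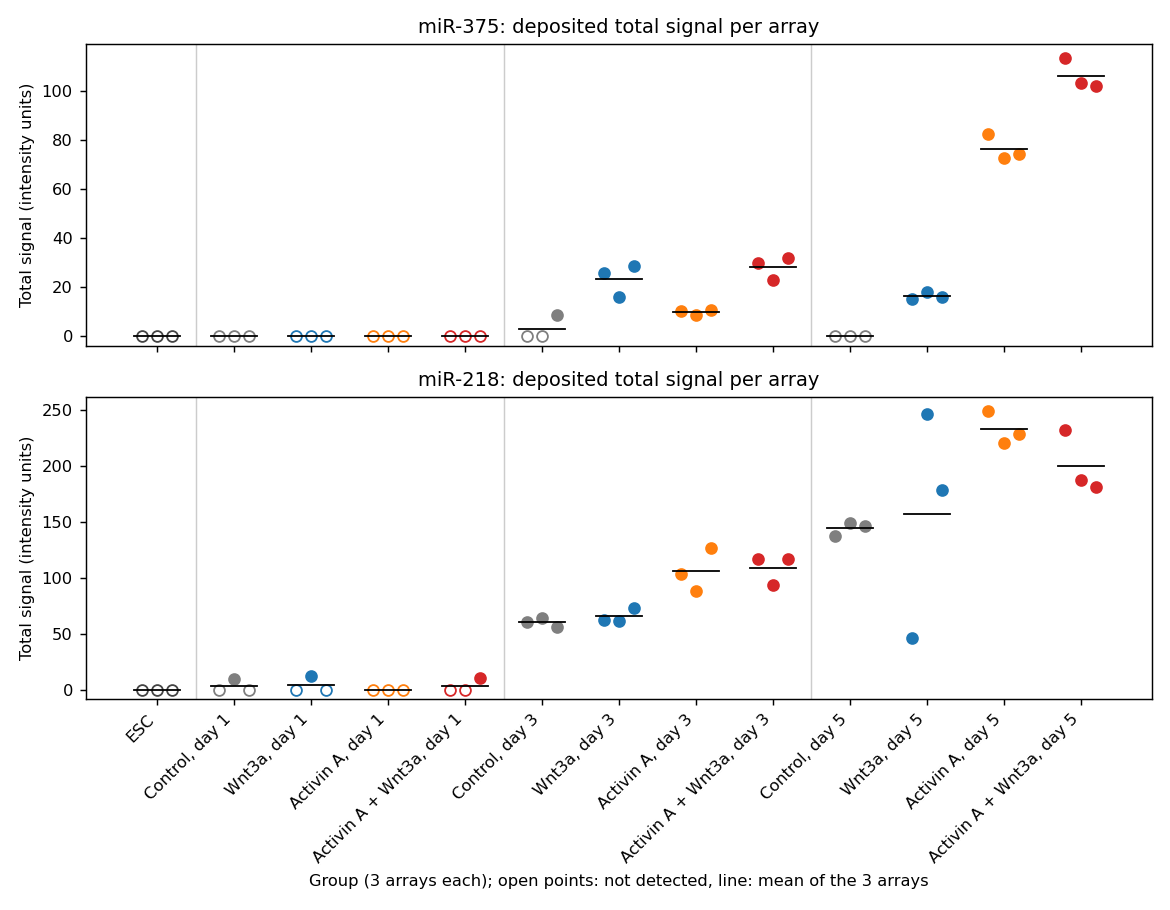
Deposited total signal (intensity units, linear axis) of miR-375 (top) and miR-218 (bottom) on each of the 39 arrays, by group; open points were undetected and the lines are the means of 3 arrays. miR-375 stood at 0.1 in ESCs and at day 1 and reached 102 to 113 in Activin A plus Wnt3a at day 5, while miR-218 was detected on all arrays of days 3 and 5.

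At day 3 miR-375 was called higher than control in every treatment, though for Activin A its spot signals overlapped those of control. The log2 level was 1.59 ± 1.02 in control (SD, n = 3, detected on 1 array), 4.16 ± 0.39 in Wnt3a, 3.27 ± 0.09 in Activin A and 4.38 ± 0.25 in Activin A plus Wnt3a. Wnt3a exceeded control by 2.57 on the log2 scale (5.94-fold, SE 0.43, limma adjusted p = 0.00156), where 15.6% of the 326 miRNAs tested were called higher at an adjusted p under 0.05. Activin A exceeded control by 1.68 (3.21-fold, adjusted p = 0.00759, background 25.5% called higher). Activin A plus Wnt3a exceeded control by 2.79 (6.92-fold, adjusted p = 0.000315, background 27%). These folds are against a control mean that holds 2 arrays at the floor, so their sizes depend on the floor.

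The Activin A call at day 3 was not matched by the spot signals. The mean background-subtracted spot signal of miR-375, not normalized between arrays, was 8.59, 10.9 and 13.1 on the control arrays, ordered by size. On the Activin A arrays it was 9.59, 10.8 and 13.4, so the groups overlapped at the level of spots. The call was lost with a floor at the lowest detected signal of each array (0.55, adjusted p = 0.225), with slide as a fixed block (1.39, adjusted p = 0.0683) and with scaling to the 75th percentile of the 143 always detected miRNAs (1.17, adjusted p = 0.0571). The spot means of the other treatments lay apart from control, at 19.3 to 22.9 in Wnt3a and 19.7 to 24.8 in Activin A plus Wnt3a.

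Adding Wnt3a to Activin A gave a higher miR-375 mean at both days, but neither difference passed the test. At day 3 the difference was 1.11 (95% interval 0.14 to 2.07, adjusted p = 0.082, background 29.4% called in either direction). Its SE of 0.43 was pooled over all groups of the day, and the control, which is not in this comparison, had the largest SD (1.02). Without control replicate 3 the difference was unchanged, the SE was 0.19 and the adjusted p was 0.00384. The difference also passed in 5 of the 14 other settings, among them the fit of all 39 arrays (adjusted p = 0.0186). At day 5 it was 0.66 (-0.07 to 1.40, adjusted p = 0.444, background 4.89%), and without Wnt3a replicate 1 its adjusted p was 0.0361. Activin A plus Wnt3a against Wnt3a differed by 0.22 at day 3 (-0.75 to 1.19, adjusted p = 0.687), and Activin A minus Wnt3a was -0.89 (-1.85 to 0.08, adjusted p = 0.116). The interaction, which is the effect of both factors minus the sum of the single effects, was -1.46 at day 3 (adjusted p = 0.114) and -0.75 at day 5 (adjusted p = 0.535). The day-3 value was called in the 39-array fit (adjusted p = 0.0422) and without control replicate 3 (-2.05, adjusted p = 0.00208). The day-5 value was called with the 75th percentile of the always detected miRNAs (-1.94, adjusted p = 0.00155) or of all miRNAs (-1.51, adjusted p = 0.0371) and with quantile normalization within each day (-2.06, adjusted p = 0.0143). Both were called with the columns of the value table as named (-3.90 and -2.40).

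At day 5 the control was undetected on all 3 arrays and was set to the floor, so the sizes of the fitted differences from it depend on the floor and are no folds. The log2 level was 2.41 ± 0.81 in Wnt3a, 5.61 ± 0.05 in Activin A and 6.27 ± 0.16 in Activin A plus Wnt3a. miR-375 was called higher in Activin A (4.61 above the floor, limma adjusted p = 4.16e-06, background 18.2% of 368 tested called higher) and in Activin A plus Wnt3a (5.27 above the floor, adjusted p = 1.49e-06, background 21.5%). The mean spot signal, which has no floor and is not normalized between arrays, was 6.97 in control. It was 61.7 in Activin A and 84.9 in Activin A plus Wnt3a, ratios to control of 8.85 and 12.2. Against Wnt3a, which was detected, Activin A was 9.18-fold higher (log2 3.20, SE 0.32, adjusted p = 4.94e-05, background 18.2%) and Activin A plus Wnt3a 14.5-fold higher (log2 3.86, adjusted p = 1.36e-05, background 20.1%).

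Wnt3a alone was called higher than control at day 5 (1.41 above the floor, limma adjusted p = 0.0316, background 5.43% called higher), a call near the threshold. It was lost in 9 of 12 omissions of 1 array, with adjusted p up to 0.106, and in 4 of the 14 other settings. Those 9 arrays were of control, Activin A or Activin A plus Wnt3a, and the difference stayed at 1.41 in each. With any Wnt3a array left out the call held, with differences from 1.00 to 1.82. After normalization the 3 Wnt3a arrays had log2 levels of 3.23, 1.60 and 2.41 in the order of the deposited signals 15.2, 18.0 and 16.2, so their order was turned by the normalization. Their spot means, not normalized between arrays, were 12.5 to 14.3. They lay above those of the control, 5.75 to 8.40, with a ratio of the group means of 1.90.

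**Figure D2:**
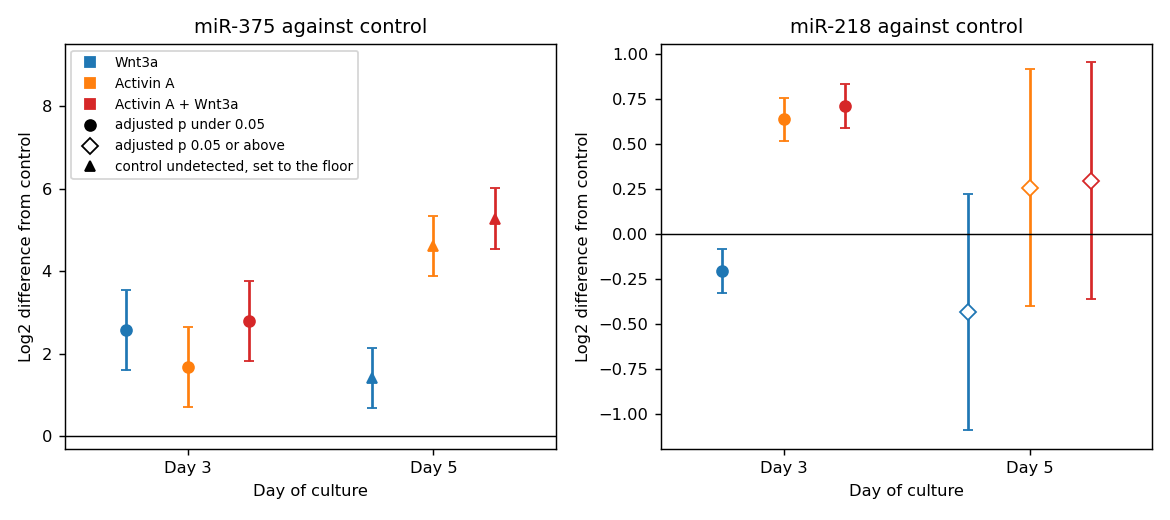
Log2 difference of each treatment from control at days 3 and 5 for miR-375 (left) and miR-218 (right), with 95% intervals from limma on the 12 arrays of the day; triangles are differences from an undetected control set to the floor, whose size depends on the floor, and open diamonds have an adjusted p of 0.05 or above. miR-375 differences reach 5.27 at day 5, while the largest miR-218 difference from control is 0.71, at day 3.

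Between days 3 and 5 miR-375 rose in both arms with Activin A and fell in Wnt3a. The arrays of control, Wnt3a and Activin A were scanned in 1 session at day 3 and in the other of the 2 sessions at day 5, on other slides, so in these arms day cannot be told apart from session and slide. Both days of Activin A plus Wnt3a were scanned in the same session, on different slides. In the fit of all 39 arrays it rose by 2.34 on the log2 scale in Activin A (5.05-fold, adjusted p = 1.96e-06), where 6.97% of 373 miRNAs were called higher, and by 1.89 in Activin A plus Wnt3a (3.71-fold, adjusted p = 7.43e-05, background 6.17%). In Wnt3a it fell by 1.75 (adjusted p = 3.55e-05, background 23.6% called lower), although the deposited signals of the 2 days overlapped (16.1 to 28.9 against 15.2 to 18.0). With scaling to the 75th percentile of the always detected miRNAs the change in Wnt3a was -0.58 (adjusted p = 0.106). The effect of Activin A against control was larger at day 5 than at day 3 by 2.93 (SE 0.44, adjusted p = 9.69e-06, background 10.2% called higher), and that of Activin A plus Wnt3a by 2.48 (adjusted p = 7.95e-05, background 15.5%). Activin A plus Wnt3a against Wnt3a gained 3.64 (adjusted p = 3.11e-07, background 15.3%). The day-3 arrays of these arms were scanned in different sessions and those of day 5 in the same one. The Wnt3a effect changed by -1.16 (adjusted p = 0.16), but by -1.75 without control replicate 3 of day 3 (adjusted p = 0.000634) and by -1.57 without Wnt3a replicate 1 of day 5 (adjusted p = 0.0117). The step from Activin A to both factors changed by -0.44 (adjusted p = 0.994).

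The 6 group means of miR-375 ran from Activin A plus Wnt3a and Activin A at day 5, through Activin A plus Wnt3a, Wnt3a and Activin A at day 3, to Wnt3a at day 5. In the 39-array fit the difference of the 2 highest groups did not pass the test (adjusted p = 0.262), although their arrays did not overlap, nor did that of Activin A plus Wnt3a and Wnt3a at day 3 (adjusted p = 0.838), whose arrays overlapped. The other neighbours differed (adjusted p = 0.00443 to 0.0327), among them Wnt3a and Activin A at day 3, which did not pass the test in the fit of that day alone. The last pair, Activin A at day 3 and Wnt3a at day 5, had overlapping arrays. Against undetected ESCs the bound was at least 1.93-fold for Activin A and 3.06-fold for Activin A plus Wnt3a at day 5. For the other groups the lowest signal that the ESC arrays could detect was above the level reached, so no fold from ESCs can be given.

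miR-218 appeared between day 1 and day 3 in every arm, the control included. It was undetected on the 3 ESC arrays. At day 1 it was detected on 1 of 3 arrays in control (9.93), Wnt3a (12.4) and Activin A plus Wnt3a (11.1), and on 0 of 3 in Activin A. At day 3 the signals were 60.8, 64.7 and 56.1 in control and 62.7, 61.5 and 72.9 in Wnt3a. These 2 groups overlapped. Activin A gave 103, 88.1 and 127 at day 3 and Activin A plus Wnt3a gave 117, 93.6 and 117, all above every control and Wnt3a array.

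At day 5 the signals of miR-218 were 138, 149 and 147 in control. Wnt3a gave 46.3, 247 and 178, a range that took in all 3 control arrays and reached those of Activin A. Activin A gave 250, 220 and 228, and Activin A plus Wnt3a gave 232, 187 and 181, again above every control array. Wnt3a replicate 1 was the lowest miR-218 signal of days 3 and 5.

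The rise from day 1 to day 3 passed the test in all 4 arms, with 2 or 3 of the day-1 arrays of each at the floor. In no arm did arrays of day 1 and day 3 share a slide, so day and slide cannot be told apart. In Activin A plus Wnt3a the scan session differed as well. The fitted sizes depend on the floor and are not given. The adjusted p of the 39-array limma fit was 0.000193 in control (background 41.8% called higher), 0.000377 in Wnt3a (background 37.8%) and 2.05e-05 in Activin A plus Wnt3a (background 36.5%). In Activin A, undetected at day 1, the rise was at least 4.35-fold (adjusted p = 7.43e-07, background 37.3%). The mean spot signal of day 3 over that of day 1 was 4.60 in control, 4.73 in Wnt3a, 8.68 in Activin A and 8.34 in Activin A plus Wnt3a. These ratios are of signals not normalized between arrays, so they are not on the scale of the tests. In control, normalization took the detected day-1 signal of 9.93 to log2 4.53 and the day-3 signal of 60.8 to log2 5.80. The shares of all miRNAs called higher are high, so a rise over this interval was common on the array. Against undetected ESCs miR-218 was at least 1.96-fold to 3.71-fold higher at day 3 and at least 3.57-fold to 5.92-fold higher at day 5.

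miR-218 was also higher at day 5 than at day 3 in each arm, by 1.09 in control, 0.86 in Wnt3a, 0.71 in Activin A and 0.67 in Activin A plus Wnt3a, where day, session and slide cannot be told apart in the first 3 arms, nor day and slide in the last. In the fit of 39 arrays, whose spread for miR-218 includes the mixed detection of day 1 (SE 0.79), none of these passed, with adjusted p from 0.32 to 0.819. In a fit of the 24 arrays of days 3 and 5 alone (SE 0.21), added after the 39-array result was seen, all 4 passed. The adjusted p was 0.000349 in control (background 27.1% of 369 called higher), 0.00265 in Wnt3a (23.6%), 0.0264 in Activin A (9.21%) and 0.0405 in Activin A plus Wnt3a (7.86%).

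At day 3 miR-218 was higher with Activin A than without it, with or without Wnt3a. The log2 level was 5.84 ± 0.05 in control, 5.63 ± 0.06 in Wnt3a, 6.47 ± 0.03 in Activin A and 6.55 ± 0.07 in Activin A plus Wnt3a (SD, n = 3). Activin A exceeded control by 0.64 (1.55-fold, SE 0.05, limma adjusted p = 6.12e-06, background 25.5% called higher) and Activin A plus Wnt3a by 0.71 (1.64-fold, adjusted p = 2.24e-06, background 27%). Against Wnt3a the differences were 0.84 for Activin A (adjusted p = 7.49e-07, background 21.5%) and 0.92 for Activin A plus Wnt3a (adjusted p = 4.61e-07, background 23%). In the fit of 39 arrays with its wider spread, neither difference from control passed (adjusted p = 0.725 and 0.606). Nor did either difference from Wnt3a (adjusted p = 0.623 and 0.548).

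Wnt3a alone was 1.15-fold lower than control at day 3 (log2 -0.21, -0.33 to -0.08, adjusted p = 0.0167, background 19.3% called lower), although its deposited signals were not lower (61.5 to 72.9, against 56.1 to 64.7). Without Wnt3a replicate 1 or 2 the call was lost, and it was also lost with the 75th percentile of the always detected miRNAs (-0.10) and with normexp correction of the spot signals (-0.03). Wnt3a added to Activin A changed miR-218 by 0.08 (-0.04 to 0.20, adjusted p = 0.339). The interaction was 0.28 (SE 0.08, adjusted p = 0.0275, background 11.3% called higher), a call lost in 5 of 12 omissions of 1 array and in 4 of the 14 other settings.

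No treatment passed the test against control in miR-218 at day 5 when all 12 arrays were fitted. The log2 level was 6.93 ± 0.02 in control, 6.49 ± 0.73 in Wnt3a, 7.18 ± 0.06 in Activin A and 7.22 ± 0.08 in Activin A plus Wnt3a. The difference from control was -0.43 for Wnt3a (-1.09 to 0.22, adjusted p = 0.395), 0.26 for Activin A (-0.40 to 0.91, adjusted p = 0.562) and 0.30 for Activin A plus Wnt3a (-0.36 to 0.95, adjusted p = 0.458). That fit includes the low Wnt3a replicate 1. Without this array the differences were 0.26 for Activin A (adjusted p = 0.00289) and 0.30 for Activin A plus Wnt3a (adjusted p = 0.00115), and both passed. Activin A plus Wnt3a against Activin A was 0.04 (-0.62 to 0.70, adjusted p = 1). No pair of neighbours among the 8 detected groups of miR-218 passed the test in the 39-array fit (adjusted p = 0.725 to 1).

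Each of the 6 miRNAs was read by 2 probes of 10 spots per array. The first probe gave 26.7% to 43.7% of the miR-375 signal over the 19 arrays that detected it (median 40.4%) and 32.8% to 44.5% of the miR-218 signal (median 42.3%). The probes moved the same way in all comparisons between detected groups but one, miR-375 in Activin A plus Wnt3a against Wnt3a at day 3 (0.22 and -0.10 on the log2 scale). For Activin A against Wnt3a at day 5 the probes of miR-375 gave 3.26 and 3.16. At day 3 they gave 0.85 and 0.39 for Activin A plus Wnt3a minus Activin A, where the total gave 1.11. For Activin A minus Wnt3a at day 3 they gave -0.63 and -0.49, where the total gave -0.89. In both of these the difference of the total was larger than that of either probe.

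The spots show how the signal of miR-375 came up from background. Of 60 spots per group, 1 was well above background in ESCs and 0 to 1 in the day-1 groups. At day 3 the counts were 3 in control, 32 in Wnt3a, 4 in Activin A and 43 in Activin A plus Wnt3a. At day 5 they were 2, 24, 60 and 60 in the same order. For miR-218, 10 of 300 spots (3.33%) of ESCs and day 1 were well above background, against 59 or 60 of 60 in each group of days 3 and 5.

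The 4 silent miRNAs had spots at the level of the negative controls. Over 39 arrays, 9 of 780 spots were well above background for miR-122, 9 for miR-192, 9 for miR-194 (1.15% each) and 3 for miR-215 (0.385%), against 186 of 16926 negative control spots (1.10%). The median over arrays of the mean spot signal was -2.09 for miR-122, 3.87 for miR-192, 0.20 for miR-194 and -2.14 for miR-215, where that of the negative controls was 3.06. The single high array mean of miR-122, 191.8 in Wnt3a replicate 3 of day 1, came from 1 spot of 3876 units that the software had marked as an outlier, and the median spot of that probe was at -3.36. The highest count of any group was 3 of 60 spots, for miR-192 in ESCs. A level under the detection limit of these arrays cannot be told from none.

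**Figure D3:**
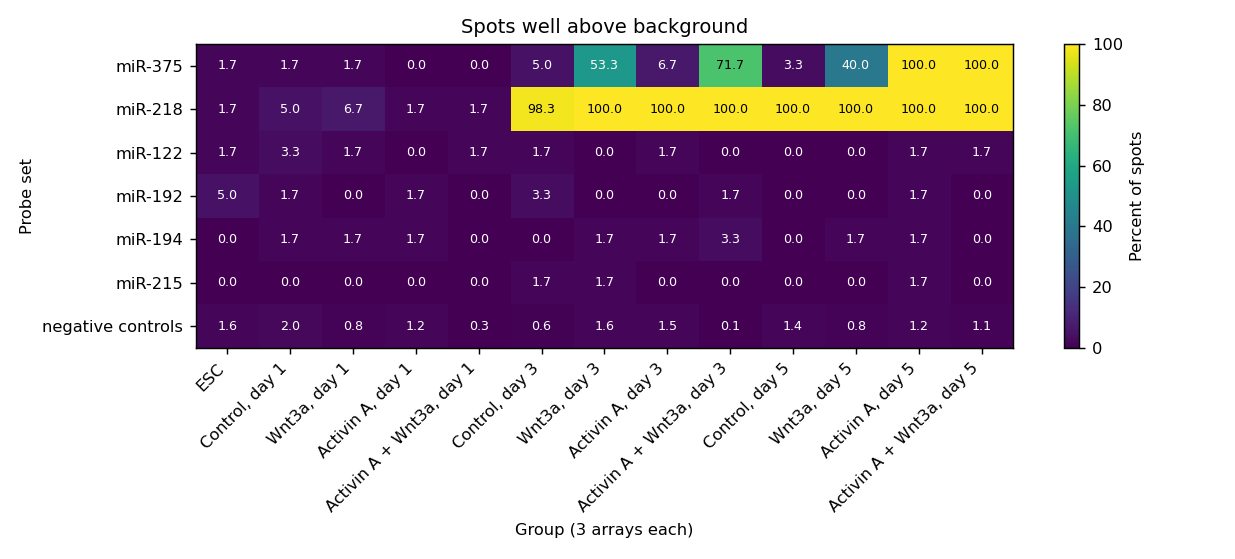
Percent of spots well above background (colour and digits) for the 6 miRNAs and the negative control spots in each group. Values above 6.67% are found only for miR-375 and miR-218 at days 3 and 5, and miR-375 reaches 100% in Activin A and in Activin A plus Wnt3a at day 5.

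The star strands of the miR-218 hairpins, which the array also carried as miR-218-1* and miR-218-2*, were undetected on all 39 arrays. Thus miR-218 was read from 1 strand, and the array does not tell which of Slit2 or Slit3 was its source, since both loci give the same mature sequence.

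Arrays lay on 5 slides, and some slides held more than 1 group of a day. On the slide that held most of day 3, miR-375 was higher in Activin A than in control by 1.39 on the log2 scale and miR-218 by 0.62. The arrays of Activin A plus Wnt3a were the only day-3 arrays on their slide, and were scanned in another session than the rest of day 3. Within that day slide, session and treatment therefore cannot be told apart for this group. At day 5 the control arrays shared their slide, among arrays of that day, with Activin A only. Wnt3a and Activin A plus Wnt3a were thus compared with control across slides. On 1 slide of day 5 miR-375 in Activin A exceeded control by 4.59 and miR-218 by 0.29, and on the other miR-375 in Activin A plus Wnt3a exceeded Wnt3a by 3.86.

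Markers of other cell types moved across the same groups, and their part in these results was not tested. In such bulk samples, fewer cells of a type and less RNA per cell cannot be told apart. The summed normalized signal of 5 epithelial miRNAs (the miR-200 family with miR-141 and miR-429) at day 5 was 117 to 119 in control, 168 to 195 in Wnt3a, 1259 to 1278 in Activin A and 1219 to 1276 in Activin A plus Wnt3a. That of 9 pluripotency miRNAs (the miR-290 and miR-302 clusters) was 9388 to 10144 in control and 12080 to 15018 in Wnt3a, against 31984 to 35551 in Activin A and 37020 to 39629 in Activin A plus Wnt3a. That of 4 neural miRNAs (miR-124, miR-9, miR-9* and miR-219) was 747 to 980 in control and 723 to 1835 in Wnt3a, against 77.7 to 87.5 and 34.99 to 40.2 in the Activin A arms. At day 5 the epithelial and pluripotency sums were high and the neural sum low in the arms where miR-375 was high. At day 3 the epithelial sum was 359 to 384 in control, 434 to 449 in Wnt3a, 1251 to 1297 in Activin A and 1176 to 1244 in Activin A plus Wnt3a. The miR-375 spot means of Activin A overlapped those of control at that day, and those of Wnt3a and of both factors lay above them. The sum of 5 fibroblast miRNAs was 383 to 461 in ESCs and 851 to 946 at day 1, against 0 to 28.0 at day 3 and 5.65 to 66.9 at day 5. Of 4 blood miRNAs, miR-142-5p, miR-451 and miR-144 were undetected on all 39 arrays. The undifferentiated ESCs had a pluripotency sum of 36577 to 37078, with 9 of 9 markers detected. The arrays carry miRNAs only, so endoderm could not be checked by its protein-coding markers.

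Over the 13 group means, the miRNAs with the pattern most like miR-375 were miR-205 (r = 0.93), miR-196b (r = 0.90) and miR-224 (r = 0.84), among 354 miRNAs compared. Those most like miR-218 were miR-450a-5p (r = 0.99), miR-744 (r = 0.98) and miR-362-5p (r = 0.98). miR-375 and miR-218 correlated with each other at r = 0.71. The groups share arrays of the same normalization, and the early groups are at or near the floor for most of these miRNAs. At day 5 miR-205 stood at log2 1.52 in control, 3.62 in Wnt3a, 5.79 in Activin A and 5.50 in Activin A plus Wnt3a, and miR-196b at 1, 1.05, 4.01 and 5.76.

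**Figure D4:**
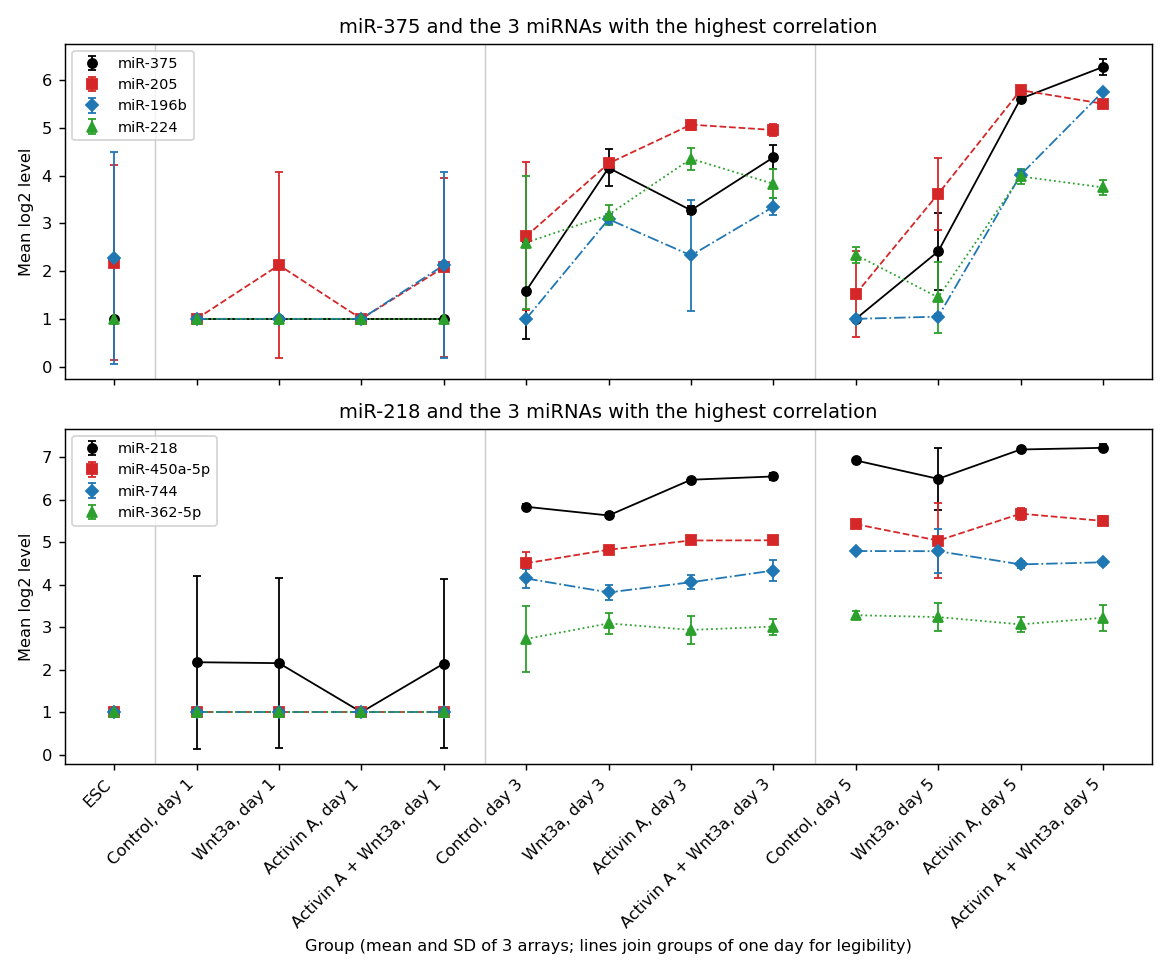
Mean log2 level (with SD over 3 arrays) in the 13 groups of miR-375 (top) and miR-218 (bottom), each with the 3 miRNAs whose group means correlated most with it; a level of 1 is the floor. miR-205 and miR-196b are high in the Activin A arms of day 5, as miR-375 is, and the miRNAs beside miR-218 start at the floor in ESCs and are up in all arms from day 3.

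To place the silent and the detected miRNAs, 14 other miRNAs of organs that come from endoderm, or of epithelia, were counted. miR-217, enriched in pancreatic acinar cells, and miR-802, known from liver, were undetected on all 39 arrays, and miR-216a, also pancreatic, was detected on 1. miR-203, of stratified epithelia, was detected on 3, miR-216b on 5, miR-7b on 6, miR-193 on 11, miR-205 on 25 and miR-101a on 34. miR-7a, an islet and neural miRNA, miR-148a, miR-365, miR-101b and miR-31 were detected on all 39. At day 1, of 6 tested, only miR-31 was called: higher by 0.65 in Wnt3a (adjusted p = 0.00453, background 10% higher) and by 0.73 in Activin A plus Wnt3a (adjusted p = 0.00181, background 12.5%), and 0 were called in Activin A (limma, 1 at an unadjusted p under 0.05). The day-1 arrays of Wnt3a and of both factors lay on another slide than the control, so slide and treatment cannot be told apart for miR-31.

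At day 3, 9 of the 14 were tested. In Activin A 6 of them were higher (miR-101a, miR-101b, miR-148a, miR-205, miR-31 and miR-7a) and 1, miR-365, was lower, where 25.5% of all miRNAs were called higher and 31% lower. With both factors these 6 and miR-7b were higher and miR-365 was lower (background 27% and 32.5%). The median difference from control over the 9 was 0.60 in Activin A and 0.52 in Activin A plus Wnt3a, against -0.04 and -0.03 over all 326. In Wnt3a miR-148a and miR-7a were higher and miR-365 lower (background 15.6% and 19.3%). Under other scalings the calls of both Activin A arms stayed, while in Wnt3a miR-365 was not called with the 75th percentile of the always detected miRNAs, nor miR-148a with that of all miRNAs. The miR-205 difference, 2.34 in Activin A (adjusted p = 0.00748), and that of miR-31, 0.81 (adjusted p = 9.06e-05), were the highest. miR-7b was the only one of the list called higher with both factors than with Activin A (adjusted p = 0.048, background 15% higher); it was detected on 2 of 3 arrays of the first and on 0 of the second.

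At day 5, 11 were tested and 4 were called in each Activin A arm. In control miR-205 was detected on 2 of 3 arrays, up to 9.93. In Activin A miR-205 was higher by 4.27 (adjusted p = 6e-05) and miR-31 by 1.63 (adjusted p = 1.06e-05), and in Activin A plus Wnt3a by 3.98 and 1.64 (adjusted p = 8.35e-05 and 7.91e-06). miR-365 was lower in these arms, at -1.25 and -1.17 (adjusted p = 3.47e-06 and 4.78e-06). miR-193 was called lower in both (adjusted p = 5.57e-05 and 4.2e-05): its signal was 13.7 to 16.3 in control, and it was detected on 2 of 3 arrays in Activin A, up to 7.87, and on 0 of 3 in Activin A plus Wnt3a. So 2 were higher and 2 lower in each arm (background 18.2% and 19.3% in Activin A, 21.5% and 24.7% in Activin A plus Wnt3a), with a median of 0.18 and 0.10. In Wnt3a miR-193 (1.52, adjusted p = 0.0022) and miR-205 (2.09, adjusted p = 0.0248) were higher, where 5.43% were called higher. The Wnt3a and control arrays of day 5 lay on different slides. With slide as a fixed block 0 of 368 miRNAs were called in Wnt3a against control. With quantile normalization within each day, neither the miR-193 nor the miR-205 call in Wnt3a held. In each of the 3 other scalings miR-216b was also called lower in all 3 treatments and miR-203 higher in Activin A, and with the 75th percentile of all miRNAs miR-101a was also called higher in Activin A. Of the listed miRNAs 0 were called between both factors and Activin A at day 5 (limma, 0 at an unadjusted p under 0.05), where 4.89% of all miRNAs were called.

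**Figure D5:**
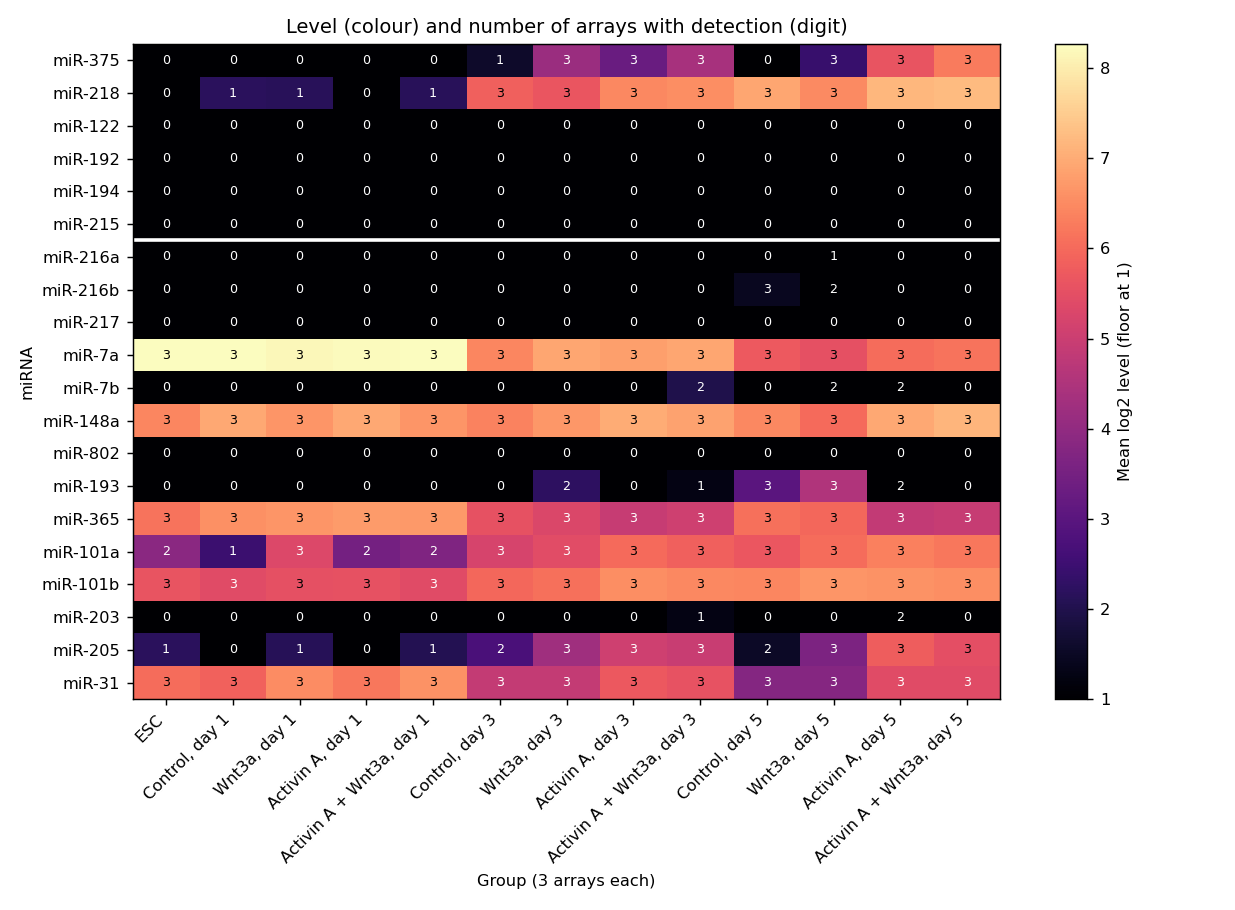
Mean log2 level (colour, floor at 1) and number of arrays with detection (digit, of 3) for the 6 miRNAs (above the line) and the 14 other organ or epithelial miRNAs (below it) in each group. miR-122, miR-192, miR-194, miR-215, miR-217 and miR-802 are undetected in all 13 groups, and miR-375 and miR-205 are highest in the Activin A arms of day 5.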

How the data were processed

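The authors deposited the scanner output of 39 1-colour Agilent miRNA arrays. The authors' deposited intensity values were made with Agilent's Feature Extraction software (version 10.7.3.1 per the file headers, 9.5.3.1 per the labels), which subtracted the background and summed the probes of each miRNA, and they were not normalized between arrays. The deposited detection flags, spot signals and well-above-background flags were read from the same files. The deposited series value table held log2 values and was kept as an alternative: 18 of its columns matched arrays other than those they are named for.

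Total signals were quantile normalized over 39 arrays (limma 3.58.1, R 4.3.3), floored at 2 and converted to log2, and 225 of 10796 detected values lay under the floor. A miRNA was tested if detected on at least 2 of 3 arrays of 1 group. Each day (12 arrays) and all 13 groups (39 arrays) were fitted with limma's empirical Bayes method and Benjamini-Hochberg adjustment over all miRNAs tested, at an adjusted p under 0.05. miR-375 and miR-218 passed this filter at days 3 and 5 and not at day 1, and the other 4 members did not pass. Against a group of ESCs or day 1 undetected on all 3 arrays, a fold is a lower bound against the lowest signal these arrays detected. In the day-5 control that limit lay at the floor, and no fold was given. The fits were also run on simulated log2 levels with a known change. These levels had no floor, undetected values or slide effects, so that run does not bear on groups at the floor. The number of arrays limits the precision. The members, lists and named miRNAs were chosen with earlier results of these data known. The miRNAs named are the 6 members, the miRNAs most like them over 13 group means, their star strands and the listed organ and marker miRNAs. Sequences are from RefSeq. That of miR-122 is not reported here. The same replicate number did not pair samples (see the closing section). Alternatives were other normalizations, floors, filters, fits, slide blocks, the replicate block, the plain test of the methods and each array left out in turn.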

Additional observations from a re-analysis of the deposited data

Results flagged for a closer look

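The treatment effect on miR-375 differed between days 3 and 5 in 3 comparisons, each tested as a difference of differences in the limma fit of all 39 arrays. The effect of Activin A against control was larger at day 5, in log2 units, by 2.93 (SE 0.44, adjusted p = 9.69e-06). The effect of Activin A plus Wnt3a was larger by 2.48 (SE 0.44, adjusted p = 7.95e-05), and its difference from Wnt3a was larger by 3.64 (SE 0.44, adjusted p = 3.11e-07). The day-5 control was undetected on all 3 arrays and the day-3 control on 2 of 3, so the first 2 values depend on the floor, and the third does not involve the control. Each of the 3 compares arrays of different sessions and slides, so day cannot be told apart from session and slide in any of them. All 3 calls held in each of the 8 alternatives and in each omission of 1 array, with values of 2.34 to 3.22, 1.89 to 2.78 and 3.24 to 4.05 over the omissions.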

How the results depend on the processing

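Over 49 results, 49 of 556 alternative values and 29 of 522 omissions of 1 array changed a call or gave a call in the other direction. A change of sign without a call before or after is not in these counts. Among all 1078 values the sign of an uncalled result changed in 19, those with the columns of the value table as named included. For miR-375, Activin A against control at day 3 was not called with the 75th percentile of the always detected miRNAs (1.17), the floor per array (0.55) or slide as a fixed block (1.39). Activin A plus Wnt3a against Activin A at day 3 was called with the 39-array fit (1.11), the 75th percentile of all (1.39) or of the always detected miRNAs (1.59), the floor per array (1.11) and normexp (0.073), and at day 5 with normexp (0.19). Wnt3a against control at day 5 was not called with no filter (1.41), the replicate block (1.41, adjusted p = 0.0545), slide as a fixed block (1.36) or normexp (0.058), and the fall in Wnt3a from day 3 to day 5 was not called with the 75th percentile of the always detected miRNAs (-0.58). The change between days of Activin A plus Wnt3a against Activin A turned from -0.44 to 0.11 with normexp.

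For miR-218, the 39-array fit called none of Activin A (0.64), Activin A plus Wnt3a (0.71) and Wnt3a (-0.21) against control at day 3. Nor did it call Activin A (0.84) or Activin A plus Wnt3a (0.92) against Wnt3a. Wnt3a against control was also not called with the 75th percentile of the always detected miRNAs (-0.10) or normexp (-0.026). The rise from day 3 to day 5 was called in the 24-array fit in control (1.09), with Wnt3a (0.86), Activin A (0.71) and both factors (0.67), with the floor per array in control (1.09), Wnt3a (0.86) and Activin A (0.71), and with normexp in all 4 (0.35, 0.26, 0.28 and 0.27). The cause of these changes was not tested.

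With 1 array left out, 12 results changed a call. For miR-375, Wnt3a against control at day 5 ran from 1.00 to 1.82, and Activin A plus Wnt3a against Activin A from 1.00 to 1.24 at day 3 and from 0.58 to 0.74 at day 5. At day 3 Activin A against Wnt3a ran from -1.11 to -0.77 and the interaction from -2.05 to -1.17, and the Wnt3a effect of day 5 minus day 3 from -1.75 to -0.75. For miR-218 at day 3, Wnt3a against control ran from -0.24 to -0.17 and the interaction from 0.24 to 0.32. For miR-218 at day 5, Activin A against control ran from 0.23 to 0.29 and Activin A plus Wnt3a against control from 0.25 to 0.34, and against Wnt3a these arms ran from 0.27 to 0.93 and from 0.31 to 0.97.

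Samples that share a replicate number did not deviate together (r from -0.26 to 0.25 at day 3 and -0.49 to 0.28 at day 5), so the number does not pair them. With it as a block, 2 calls were lost: that of Wnt3a above and the miR-218 interaction at day 3. Scaling to the 75th percentile of the always detected miRNAs moved the median difference of all miRNAs to -0.21 for Activin A at day 3 and to -0.19 and -0.20 for Activin A without and with Wnt3a at day 5. Low signals in ESCs and at day 1 limit what can be detected there.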
